A study of Mus musculus with 6 samples.

Results

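The imprinted growth gene network comprised 10 genes chosen by name, H19, Igf2, Meg3, Rian, Peg3, Dlk1, Cdkn1c, Plagl1, Grb10 and Ndn, out of 38293 genes in the table of raw counts. All 10 were found by their Ensembl identifiers, and 9 of them passed edgeR's filter on low counts, which kept 14746 genes. Dlk1 did not pass it. RNA-seq had been performed on hearts of Zeb2 fl/fl (n = 3) and Zeb2 cKO (n = 3) mice on day 14 of a myocardial infarction (MI), for which the left anterior descending artery was permanently tied off. Both groups were young adult males that carried the floxed Zeb2 allele on both chromosomes and a backcrossed C57BL/6J background, and the Zeb2 cKO mice also carried a Cre recombinase driven by the Myh6 promoter, which is active in cardiomyocytes. The sample labels call the Zeb2 fl/fl mice WT. By these labels the tissue came from the infarct border, whereas the methods of the study name the remote zone. Sham-operated hearts, and mice with Cre but without the floxed allele, were not analysed here.

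Imprinted genes are read mainly from the copy inherited from the mother or mainly from the copy inherited from the father, and a mark of DNA methylation set in the germ line decides which. Many of them act on fetal growth: paternally expressed genes such as Igf2 tend to promote it, whereas maternally expressed genes such as H19, Cdkn1c and Grb10 tend to restrain it. Most are abundant in fetal tissues, the heart included, and are turned down after birth, and members of this network have been described to be expressed together in growing tissues. H19, Meg3, Rian, Cdkn1c and Grb10 are mainly maternally expressed, and Igf2, Dlk1, Peg3, Plagl1 and Ndn mainly paternally. The counts do not tell the parental copies apart.

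Total counts per library were between 37288174 and 51136331, of which 60.5% to 67.0% lay in mitochondrially encoded genes. Levels are given as CPM, counts scaled to library sizes normalized with TMM. Replicates are separate libraries of a genotype, and p-values measure the spread between these libraries. Zeb2 fl/fl replicate 2 stood apart from the other 5 libraries. The summed level of 16 fibroblast and matrix markers was 10571 CPM in it, against 1549 to 2499.5 CPM in the others, and that of 12 macrophage markers was 960.1 CPM, against 238 to 337 CPM. The 10 cardiomyocyte markers of the labelled tissue were all detected and summed to 34925.5 CPM in this library and to 56306 to 68398 CPM in the others. The members that follow are therefore given with and without it. In bulk tissue, fewer cells of a type cannot be told apart from less RNA per cell. Zeb2, deleted in cardiomyocytes but counted here over all cells, was at 61.3 to 116 CPM in Zeb2 fl/fl and at 59.6 to 72.6 CPM in Zeb2 cKO hearts, with overlapping groups. The value of 116 CPM came from Zeb2 fl/fl replicate 2. For this gene, Zeb2 cKO relative to Zeb2 fl/fl hearts stood at -0.33 on the log2 scale with all 6 libraries. Dropping the outlying library brought it to -0.0058, so the deletion was not visible in the counts of the remaining libraries.

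None of the 9 tested members passed the test between the genotypes. Igf2 was the member with the smallest p and had the only log2 fold change over 0.2, at 0.45 in Zeb2 cKO relative to Zeb2 fl/fl hearts. Meg3, Rian, Peg3, Plagl1 and Ndn had log2 fold changes between -0.31 and -0.61, and each of these 5 was highest in Zeb2 fl/fl replicate 2. H19, Cdkn1c and Grb10 lay between -0.12 and 0.13. With edgeR's quasi-likelihood test and Benjamini-Hochberg adjustment over all tested genes, the adjusted p was 0.960 for H19 and 0.957 for each of the other tested members, and 0 members passed an adjusted p of 0.05, as did 0% of all tested genes. An unadjusted p under 0.05 from the same test was reached by 0 members and by 1.9% of all genes. In all 9 the libraries of the groups overlapped, whereas the groups did not overlap in 6.36% of all tested genes, 2.97% with Zeb2 cKO lower and 3.39% with Zeb2 cKO higher.

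**Figure D1:**
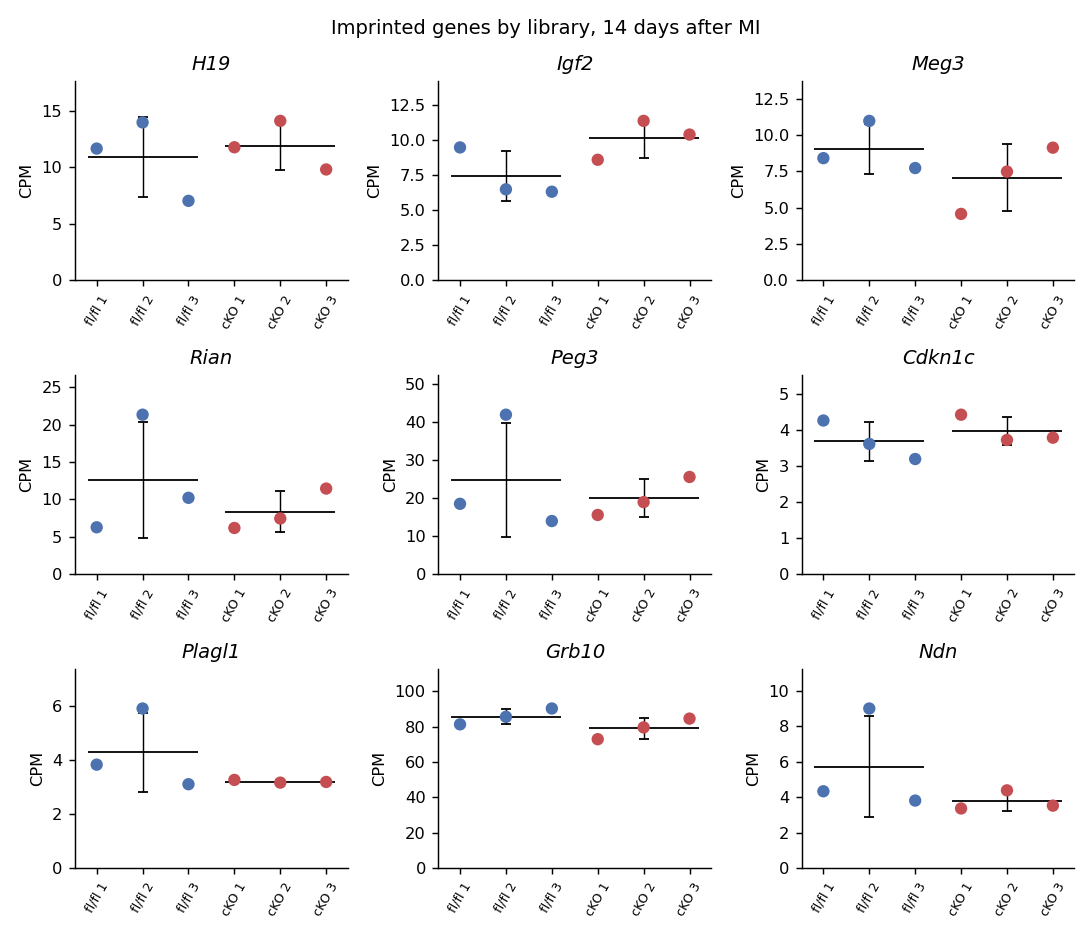
CPM (vertical axis, linear, from 0) of the 9 tested members in each library, with blue points for Zeb2 fl/fl (fl/fl) and red points for Zeb2 cKO (cKO) replicates 1 to 3. Horizontal lines are group means and vertical bars 1 SD of 3 libraries. Rian, Peg3 and Ndn show 1 high point, Zeb2 fl/fl replicate 2, at 21.3, 41.8 and 9.0 CPM, and the groups overlap in every panel.

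Igf2 and H19 lie next to each other on distal chromosome 7 and share a control region and enhancers, so that the paternal copy gives Igf2 and the maternal copy H19. Igf2 encodes a secreted growth factor that signals through the IGF1 receptor and an isoform of the insulin receptor. Its gene (ENSMUSG00000048583) spans 142650766 to 142666816 on the minus strand of chromosome 7 (GRCm38). Its level was 9.45, 6.47 and 6.30 CPM among Zeb2 fl/fl mice, here and hereafter in the order of replicates 1, 2 and 3, against 8.57, 11.3 and 10.4 CPM among Zeb2 cKO mice. Zeb2 cKO replicates 2 and 3 were the highest libraries, but Zeb2 fl/fl replicate 1 lay above Zeb2 cKO replicate 1, so the groups overlapped. The means were 7.41 ± 1.77 and 10.1 ± 1.4 CPM (SD, n = 3 each), and a two-sided exact permutation test gave p = 0.2, where the smallest p that 3 libraries against 3 allow is 0.1. On the log2 scale this was a fold change of 0.45 (standard error 0.20), with a 95% confidence interval from -0.03 to 0.92 and an unadjusted p of 0.0611 from edgeR. Without Zeb2 fl/fl replicate 2 it was 0.36, and without Zeb2 fl/fl replicate 1 it was 0.66, with an unadjusted p of 0.00726 and an adjusted p of 0.596 from the quasi-likelihood test of edgeR (Benjamini-Hochberg adjustment). Igf2os, an antisense RNA of the Igf2 gene that shares 98 exonic bases with it, was too low to be tested, with 2, 0 and 0 counts among Zeb2 fl/fl mice, against 3, 7 and 9 among Zeb2 cKO mice. The strand option of the counting is not given in the sources used here, so reads of these overlapping genes may not have been told apart. Of the longest Igf2 transcript, 76.2% is also annotated in the readthrough gene Gm49394, which has no entry in the count table.

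H19 (ENSMUSG00000000031) produces a long noncoding RNA and is known as a trans-acting brake on the imprinted network in the embryo. It spans 142575529 to 142578143 on the minus strand of chromosome 7. H19 measured 11.7, 14.0 and 7.03 CPM among Zeb2 fl/fl mice, against 11.8, 14.1 and 9.81 CPM among Zeb2 cKO mice. The replicates numbered 2 were the highest of both genotypes and nearly equal, and the lowest library was Zeb2 fl/fl replicate 3. Its log2 fold change was 0.13 (standard error 0.27, 95% confidence interval -0.50 to 0.76, exact permutation test, two-sided p = 0.6). It was 0.35 without Zeb2 fl/fl replicate 2, -0.11 without Zeb2 fl/fl replicate 3 and -0.012 without Zeb2 cKO replicate 2, so its sign rested on single libraries. The ratio of H19 to Igf2 CPM, computed after the values of both genes had been seen, was 1.23, 2.16 and 1.12 among Zeb2 fl/fl mice, against 1.37, 1.24 and 0.946 among Zeb2 cKO mice. The 5 libraries other than Zeb2 fl/fl replicate 2 lay within 0.946 to 1.37, and the ratio did not differ between the genotypes beyond its spread (exact permutation test on log2 ratios, two-sided p = 0.6).

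Both RNAs are also precursors of microRNAs, miR-675 in an exon of H19 and miR-483 in an intron of Igf2. The mature forms are shown because they are the functional products that the host counts do not measure: the hairpin genes Mir675 and Mir483 had 0 counts in all 6 libraries, and so did Mir770 in Meg3. Sequences are from RefSeq (GRCm38.p6), 5′ to 3′, with the seed (bases 2 to 8) in capitals, and no seed is shared among them.
mmu-miR-675-5p, chr7:142577112-142577133, minus strand: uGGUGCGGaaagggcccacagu
mmu-miR-675-3p, chr7:142577078-142577099, minus strand: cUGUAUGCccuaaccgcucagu
mmu-miR-483-5p, chr7:142654968-142654989, minus strand: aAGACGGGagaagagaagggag
mmu-miR-483-3p, chr7:142654932-142654952, minus strand: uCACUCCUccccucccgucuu

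Grb10 (ENSMUSG00000020176) encodes an adaptor protein that binds the activated insulin and IGF1 receptors and dampens their signal. It spans 11930508 to 12038683 on the minus strand of chromosome 11 and was the most abundant and the most even member. Grb10 measured 81.3, 85.6 and 90.3 CPM among Zeb2 fl/fl mice, against 72.9, 79.6 and 84.6 CPM among Zeb2 cKO mice. The highest library was a Zeb2 fl/fl and the lowest a Zeb2 cKO library, the highest was only 1.24 times the lowest, and the groups overlapped between Zeb2 fl/fl replicate 1 and Zeb2 cKO replicate 3. Between genotypes, the log2 fold change was -0.12 (standard error 0.12, 95% confidence interval -0.41 to 0.17), with a two-sided exact permutation p of 0.2. Leaving out any single library kept it between -0.17 and -0.063.

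Cdkn1c and Plagl1 act on the cell cycle. Cdkn1c (ENSMUSG00000037664, minus strand of chromosome 7, 143458339 to 143461050) encodes p57Kip2, an inhibitor of cyclin-dependent kinases. It measured 4.27, 3.62 and 3.20 CPM among Zeb2 fl/fl mice, against 4.44, 3.73 and 3.80 CPM among Zeb2 cKO mice. All 6 libraries lay within 1.39 times of each other, and replicate 1 was the highest of each genotype. For Cdkn1c the log2 fold change came to 0.11 (standard error 0.17, 95% confidence interval -0.29 to 0.51; exact permutation p = 0.4, two-sided). Leaving out single libraries, it ran from 0.016 without Zeb2 fl/fl replicate 3 and 0.025 without Zeb2 cKO replicate 1 to 0.23 without Zeb2 fl/fl replicate 1. Of the longest Cdkn1c transcript, 31.3% is also covered by the antisense gene Gm44732, so its count is uncertain to that extent.

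Plagl1 (ENSMUSG00000019817, plus strand of chromosome 10, 13060504 to 13131694) encodes ZAC1, a zinc finger transcription factor that can arrest the cell cycle and that is known to activate other imprinted genes, among them Igf2, H19 and Cdkn1c. Plagl1 measured 3.82, 5.90 and 3.10 CPM among Zeb2 fl/fl mice, against 3.26, 3.16 and 3.18 CPM among Zeb2 cKO mice. The Zeb2 cKO libraries were nearly equal and lay between Zeb2 fl/fl replicates 3 and 1, while Zeb2 fl/fl replicate 2 was the highest. The log2 fold change of -0.42 (standard error 0.25, 95% confidence interval -1.01 to 0.17; exact permutation p = 0.4, two-sided) became -0.11 without that library. Without Zeb2 fl/fl replicate 3 it was -0.60, with an unadjusted p of 0.0395 and an adjusted p of 0.916 from the quasi-likelihood test of edgeR (Benjamini-Hochberg adjustment).

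Dlk1, Meg3 and Rian form an imprinted domain on distal chromosome 12. Dlk1 (ENSMUSG00000040856, plus strand, 109452823 to 109463336) encodes a membrane protein of the Notch ligand type that keeps precursor cells undifferentiated. It had 0 counts in each Zeb2 fl/fl library, against 0, 1 and 1 counts among Zeb2 cKO mice. All were under the level that 3 counts would give, 0.0558 to 0.0796 CPM depending on the library, so Dlk1 was not detectable at this depth and no fold change is given. This limit covers counting error only, since the reads carried no molecular identifiers.

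Meg3 and Rian are long noncoding RNAs read from the maternal copy of the same domain. Meg3 (ENSMUSG00000021268, plus strand, 109541001 to 109571726) measured 8.42, 10.98 and 7.73 CPM among Zeb2 fl/fl mice, against 4.58, 7.49 and 9.14 CPM among Zeb2 cKO mice. The highest library was Zeb2 fl/fl replicate 2 and the lowest Zeb2 cKO replicate 1, and Zeb2 cKO replicate 3 lay within the range of Zeb2 fl/fl hearts. The log2 fold change was -0.36 (standard error 0.27, 95% confidence interval -0.996 to 0.28; exact permutation p = 0.4, two-sided). It was -0.19 without Zeb2 fl/fl replicate 2 and -0.12 without Zeb2 cKO replicate 1, but -0.59 without Zeb2 cKO replicate 3. Of the longest Meg3 transcript, 9.11% is shared with Mir770 and the antisense gene Gm26906, and its count is uncertain to that extent.

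Rian (ENSMUSG00000097451, plus strand, 109603940 to 109661716) is the host of a large array of small nucleolar RNAs and of several microRNAs. It measured 6.27, 21.3 and 10.2 CPM among Zeb2 fl/fl mice, against 6.18, 7.44 and 11.4 CPM among Zeb2 cKO mice. The level in Zeb2 fl/fl replicate 2 was 3.45 times that in the lowest library, the widest range of any tested member, and the other 5 libraries of both genotypes were intermingled. The log2 fold change was -0.59 (standard error 0.45, 95% confidence interval -1.67 to 0.48; exact permutation p = 0.6, two-sided) with all libraries and 0.026 without that one. The largest size was -0.91, without Zeb2 fl/fl replicate 1. The ratio of Meg3 to Rian CPM, also chosen after the values were seen, was 1.34, 0.515 and 0.758 among Zeb2 fl/fl mice, against 0.741, 1.01 and 0.798 among Zeb2 cKO mice. Zeb2 fl/fl replicates 1 and 2 were its extremes, and the genotypes did not differ beyond the spread (exact permutation test on log2 ratios, two-sided p = 0.9).

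Peg3 and Ndn are paternally expressed genes with a role in cell survival and growth arrest. Peg3 (ENSMUSG00000002265, minus strand of chromosome 7, 6703892 to 6730431) encodes a large zinc finger protein. Its level was 18.5, 41.8 and 13.9 CPM among Zeb2 fl/fl mice, against 15.5, 18.9 and 25.5 CPM among Zeb2 cKO mice. The highest library was again Zeb2 fl/fl replicate 2 and the lowest Zeb2 fl/fl replicate 3, so that the Zeb2 cKO libraries lay within the range of the Zeb2 fl/fl libraries. For Peg3 the log2 fold change came to -0.31 (standard error 0.41, 95% confidence interval -1.29 to 0.67; exact permutation p = 0.9, two-sided), and it was 0.31, of the opposite sign, without Zeb2 fl/fl replicate 2. It was -0.59 without Zeb2 fl/fl replicate 3, -0.53 without Zeb2 cKO replicate 3 and -0.16 without Zeb2 cKO replicate 1.

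Ndn (ENSMUSG00000033585, plus strand of chromosome 7, 62346569 to 62350262, a gene of a single exon) encodes necdin, a growth suppressor of the MAGE family. Ndn measured 4.33, 9.0 and 3.80 CPM among Zeb2 fl/fl mice, against 3.36, 4.38 and 3.52 CPM among Zeb2 cKO mice. Apart from Zeb2 fl/fl replicate 2, all libraries lay between 3.36 and 4.38 CPM and the genotypes were intermingled. The log2 fold change of -0.61 (standard error 0.34, 95% confidence interval -1.42 to 0.20; exact permutation p = 0.3, two-sided) was the most negative of the members and became -0.12 without that library. Without Zeb2 fl/fl replicate 3 it was -0.83, with an unadjusted p of 0.0458 and an adjusted p of 0.916 from the quasi-likelihood test of edgeR (Benjamini-Hochberg adjustment).

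**Figure D2:**
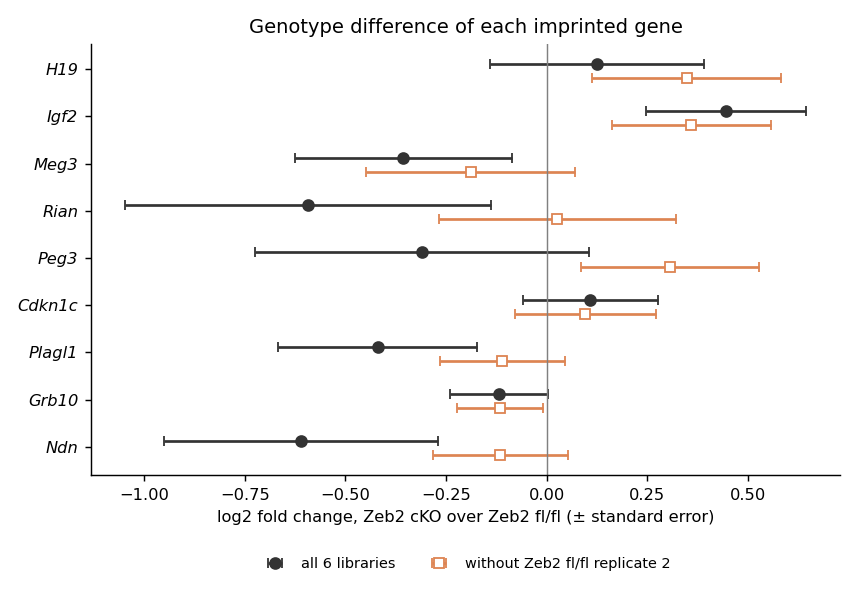
Log2 fold change of each tested member, Zeb2 cKO over Zeb2 fl/fl (horizontal axis), with bars of 1 standard error, from all 6 libraries (black circles) and without Zeb2 fl/fl replicate 2 (orange squares). Rian moves from -0.59 to 0.026, Peg3 from -0.31 to 0.31 and Ndn from -0.61 to -0.12, while Igf2, at 0.45 and 0.36, Cdkn1c and Grb10 move little.

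Counted over the list, 5 of the 9 tested members had a log2 fold change under -0.2, beside 22.6% of all tested genes, and 1 was over 0.2, beside 15.9% of all genes. The median of the members was -0.31 and that of all genes -0.0069. Without Zeb2 fl/fl replicate 2, 0 members were under -0.2, beside 11.7% of all genes tested then, and 3 members, H19, Igf2 and Peg3, were over 0.2, beside 14.2%. The median of the members was then 0.026, and 0 members had an unadjusted p under 0.05, beside 2.63% of all genes. With the mean level of the fibroblast and matrix markers as a covariate, 0 members were under -0.2, beside 10.7% of all genes in that fit, and 3 were over 0.2, beside 13.1%, with a median of 0.063. Zeb2 fl/fl replicate 2 was the highest library in 55.6% of the members and in 35.2% of all genes, and the lowest in 0 members and in 34.6% of all genes.

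To compare members with each other, levels were divided by exon length in kilobases and are CPM per kb. Exon lengths were those of the Gencode M21 annotation, whereas the counts were made on an earlier version, which limits this scale. Grb10 stood highest at 9.07 ± 0.654 CPM per kb, followed by H19 at 4.63 ± 1.09 (SD over 6 libraries), and both differed from the next member by more than the larger SD of the pair. Cdkn1c, Peg3, Igf2 and Ndn, at 1.89, 1.68, 1.53 and 1.28 CPM per kb, formed a middle group in which no neighbours differed beyond their spread. Rian, Plagl1 and Meg3, at 0.575, 0.478 and 0.445 CPM per kb, were lower than Ndn and did not differ from each other beyond their spread, and Dlk1 came last at 0.00123 CPM per kb. The growth restraining genes Grb10 and H19 thus had higher levels per length than the growth factor Igf2 in every library.

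**Figure D3:**
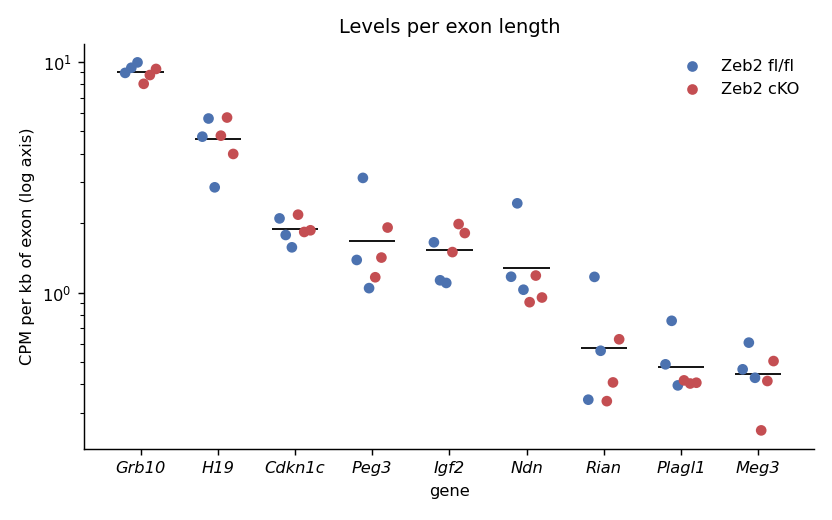
CPM per kb of exon (vertical axis, log scale) of the 9 tested members in order of their mean, with blue points for Zeb2 fl/fl and red points for Zeb2 cKO libraries and lines for the mean of 6 libraries. Grb10 lies at 8.03 to 9.94 and H19 at 2.86 to 5.73 CPM per kb, above all other members except for the highest Peg3 library, at 3.14.

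Whether the members vary together was tested over the 36 pairs of the 9 tested members, by correlating their log2 CPM across the 6 libraries. Pearson's r was positive in 23 pairs and negative in 13, with a median of 0.352, while the median over all pairs of tested genes was -0.001. After Benjamini-Hochberg adjustment over the 36 pairs, 0 pairs had a permutation p under 0.05 (exact over 720 pairings), the smallest adjusted value being 0.504 for Pearson's r and 0.753 for Spearman's rho. Before adjustment, 2 pairs had a p under 0.05 for Pearson's r and 0 for Spearman's rho. No share of all gene pairs with such a p is given for comparison, so 2 of 36 may be no more than chance gives. For Spearman's rho, the smallest exact p that 720 pairings allow is 0.00278. For a single pair this becomes 0.1 after adjustment over 36 pairs, so no pair could have passed alone on rho. Several pairs with a small p could have passed together, and none did. For Pearson's r the smallest possible p can be lower and is not given here. A count of 0 from 6 libraries does not show that the members vary independently. The pairs share members and libraries and are not independent of each other.

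Both pairs that passed before adjustment joined genes of different chromosomes. Rian and Peg3 had r = 0.82 (exact permutation p = 0.0458) and rho = 0.66 (exact p = 0.175), and r was 0.20 without the 2 libraries farthest from the median of Rian and 0.35 without Zeb2 fl/fl replicate 2. Their relation thus rested on those libraries. Cdkn1c and Grb10 went in opposite directions, with r = -0.86 (exact permutation p = 0.0347) and rho = -0.83 (exact p = 0.0583). Here r was -0.41 without the 2 libraries farthest from the median of Cdkn1c and -0.86 without Zeb2 fl/fl replicate 2. The relation thus rested in part on Zeb2 fl/fl replicate 3 and Zeb2 cKO replicate 1, the libraries left out first, and not on Zeb2 fl/fl replicate 2. Plagl1 and Ndn had the highest r of all pairs, 0.95 (exact permutation p = 0.0597), but rho was 0.31 (exact p = 0.564), and r was 0.43 without Zeb2 fl/fl replicate 2 and -0.58 without the 2 libraries farthest from the median of Plagl1.

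No pair of genes of the same domain had a p under 0.05. For Meg3 and Rian on chromosome 12, r was 0.74 (exact permutation p = 0.11) and rho 0.83 (exact p = 0.0583), and r was 0.35 without the 2 libraries farthest from the median of Meg3. The neighbours H19 and Igf2 had r = 0.39 (exact permutation p = 0.468) and rho = 0.43 (exact p = 0.419). That r was 0.84 without Zeb2 fl/fl replicate 2 but -0.95 without the 2 libraries farthest from the median of H19, so it had no stable sign. For Cdkn1c, in the same part of chromosome 7, r was 0.51 with H19 (exact permutation p = 0.318) and 0.50 with Igf2 (exact permutation p = 0.322), with rho of 0.14 (exact p = 0.803) and 0.43 (exact p = 0.419). Without the 2 libraries farthest from the median of the first gene of a pair these became -0.19 and -0.96. Over all pairs, the median r was 0.192 without Zeb2 fl/fl replicate 2, 0.222 without Zeb2 fl/fl replicate 3 and 0.308 for deviations from the genotype means. Over pairs without their 2 farthest libraries it was 0.244, with 22 of 36 pairs positive.

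**Figure D4:**
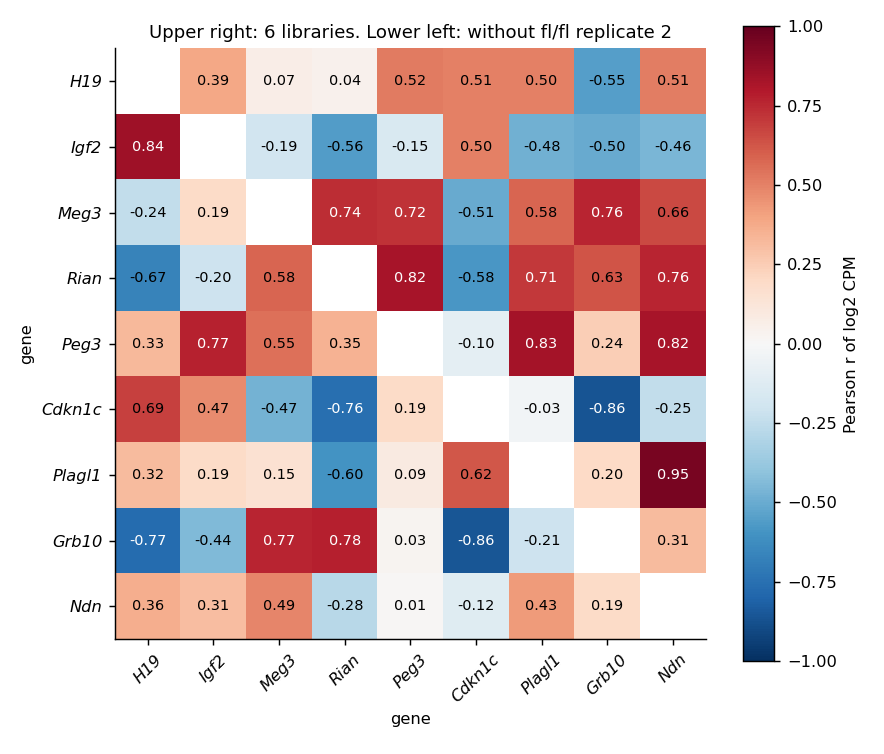
Pearson r of log2 CPM (colour, from -1 to 1, and printed value) for each pair of tested members across 6 libraries (above the diagonal) and without Zeb2 fl/fl replicate 2 (below it). The positive block of Peg3, Plagl1 and Ndn above the diagonal, with r of 0.82 to 0.95, is at 0.01 to 0.43 below it, whereas Cdkn1c and Grb10 are at -0.86 in both.

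Library by library, the mean deviation of the 9 members from their 6-library means was -0.029, 0.48 and -0.24 on the log2 scale among Zeb2 fl/fl mice, against -0.25, -0.0097 and 0.045 among Zeb2 cKO mice. Only Zeb2 fl/fl replicate 2 lay more than 0.25 from 0, and the other Zeb2 fl/fl libraries fell within the range of the Zeb2 cKO libraries. In that library the deviation was 1.17 for Rian, 1.01 for Peg3, 1.01 for Ndn, 0.69 for Plagl1, 0.49 for Meg3 and 0.33 for H19. It was 0.06 for Grb10, -0.08 for Cdkn1c and -0.40 for Igf2, so the network did not move as a unit even there. The 16 fibroblast and matrix markers and the 12 macrophage markers were each highest in this library, with mean deviations of 1.93 and 1.47. Every gene of both lists had a log2 fold change under -0.2 with all libraries. Without Zeb2 fl/fl replicate 2, 1 of the 16 and 0 of the 12 were under -0.2, and 4 and 2 were over 0.2. None was at 0 counts in all libraries. The summed levels of the lists ran from 1813.5 to 10571 and from 238 to 960.1 CPM in Zeb2 fl/fl hearts. In Zeb2 cKO hearts they ran from 1549 to 2499.5 and from 291 to 311 CPM. The part of these markers in the levels of Rian, Peg3, Ndn, Plagl1 and Meg3 was not tested. In the fit with the fibroblast and matrix markers as a covariate, these 5 members were at 0.063, 0.28, -0.15, -0.14 and -0.16. The mean of those markers deviated by 1.93 in Zeb2 fl/fl replicate 2 and by -0.64 to -0.022 in the others. The fit therefore nearly repeats leaving out that library, and it cannot separate fibroblasts from other traits of that library.

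**Figure D5:**
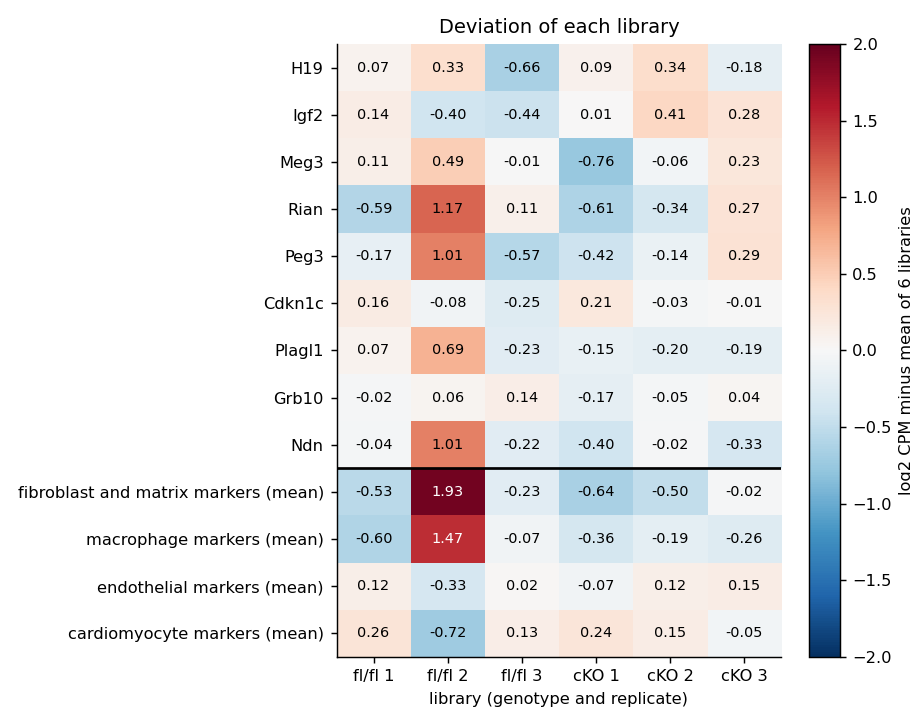
Log2 CPM minus the mean of the 6 libraries (colour, from -2 to 2, and printed value) for the 9 tested members and, under the line, the mean of 4 marker lists, in each library. Zeb2 fl/fl replicate 2 is at 1.93 for fibroblast and matrix markers, 1.47 for macrophage markers and -0.72 for cardiomyocyte markers, and the members range there from -0.40 (Igf2) to 1.17 (Rian).

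Markers of other cells deviated less in that library, with list means from -0.72 for adipocyte and cardiomyocyte to 0.83 for epicardial markers. Of 10 endothelial markers, 7 were lowest in it, 0 were under -0.2 and 1 was over 0.2, and their summed level was 469.6 to 689 CPM in Zeb2 fl/fl and 597 to 703 CPM in Zeb2 cKO hearts. Of 10 cardiomyocyte markers, 9 were lowest in it, 0 were under -0.2 and 3 were over 0.2. Without Zeb2 fl/fl replicate 2, 1 of these 10 was under -0.2 and 0 were over 0.2. Of 8 mural cell markers, 1 was under -0.2 and 4 were over 0.2, and without Zeb2 fl/fl replicate 2 these counts were 0 and 1. Their summed levels were 557 to 943 CPM in Zeb2 fl/fl and 870.0 to 961 CPM in Zeb2 cKO hearts. Of 7 epicardial markers, 1 was under and 2 were over, at 8.75 to 18.4 CPM and 11.6 to 13.5 CPM. Leaving out Zeb2 fl/fl replicate 2 put 5 of these 7 over 0.2. The 10 adipocyte markers summed to 933 to 1747 CPM in Zeb2 fl/fl and 1449.7 to 1564 CPM in Zeb2 cKO hearts. Only 4 of them passed the filter on low counts, and of these 0 were under and 3 were over. The mean deviation of these 4 was -0.14, -0.72 and -0.035 among Zeb2 fl/fl mice, against 0.60, 0.16 and 0.14 among Zeb2 cKO mice, so that the groups did not overlap. Of the 4, only Car3, named after its values were seen, did not overlap between the groups, beside 6.36% of all genes, and had an unadjusted p under 0.05, beside 1.9%. It was at 1.98 on the log2 scale, with an adjusted p of 0.957 (quasi-likelihood test in edgeR, Benjamini-Hochberg method). The 8 skeletal muscle markers summed to 667 to 1498 CPM in Zeb2 fl/fl and 878 to 1803 CPM in Zeb2 cKO hearts. Of the 5 tested, 1 was under and 3 were over. The groups did not overlap in 1 marker with Zeb2 cKO lower and in 1 with Zeb2 cKO higher. An unadjusted p under 0.05 from edgeR was reached by 1 marker, lower in Zeb2 cKO, and an adjusted one by 0. No marker of these lists was at 0 counts in all libraries, and their part in the members' values was not tested.

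The promoters of Rian, Peg3, Plagl1 and Ndn are shown because these members had the largest deviations in Zeb2 fl/fl replicate 2, from 0.69 to 1.17. Meg3, at 0.49, was also highest in that library, but its windows are not printed. RefSeq (GRCm38.p6) windows of 250 bases before to 50 bases after a transcript start were listed for 8 members, 13 windows in all, and H19 and Cdkn1c had no entry. The letters searched, on both strands, were CACCT, a core element that ZEB2 binds, the longer CACCTG, which contains it, and the palindrome GGGGCCCC, an element described for PLAGL1. Capitals mark a match, which reads AGGTG where the first element lies on the other strand, and positions count from 1 at the 5′ end.
Rian promoter, chr12:109603695-109603994, plus strand: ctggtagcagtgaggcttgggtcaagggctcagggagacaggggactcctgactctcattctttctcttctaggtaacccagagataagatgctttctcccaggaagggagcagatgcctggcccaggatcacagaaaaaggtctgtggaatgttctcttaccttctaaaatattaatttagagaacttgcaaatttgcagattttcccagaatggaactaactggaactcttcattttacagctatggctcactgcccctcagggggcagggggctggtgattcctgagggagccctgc
Peg3 promoter, chr7:6730370-6730669, minus strand: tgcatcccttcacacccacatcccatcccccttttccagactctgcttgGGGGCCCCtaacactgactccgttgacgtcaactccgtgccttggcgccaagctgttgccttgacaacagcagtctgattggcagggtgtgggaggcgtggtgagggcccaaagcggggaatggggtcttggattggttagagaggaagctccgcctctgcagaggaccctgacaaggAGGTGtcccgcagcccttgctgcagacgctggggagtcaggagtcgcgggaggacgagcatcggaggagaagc
Plagl1 promoter, chr10:13090582-13090881, plus strand: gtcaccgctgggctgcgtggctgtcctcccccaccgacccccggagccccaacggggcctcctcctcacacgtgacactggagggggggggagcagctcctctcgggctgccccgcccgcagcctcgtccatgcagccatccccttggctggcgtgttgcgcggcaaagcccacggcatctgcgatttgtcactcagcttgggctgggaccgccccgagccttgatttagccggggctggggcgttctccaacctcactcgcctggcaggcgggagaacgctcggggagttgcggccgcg
Ndn promoter, chr7:62348027-62348326, plus strand: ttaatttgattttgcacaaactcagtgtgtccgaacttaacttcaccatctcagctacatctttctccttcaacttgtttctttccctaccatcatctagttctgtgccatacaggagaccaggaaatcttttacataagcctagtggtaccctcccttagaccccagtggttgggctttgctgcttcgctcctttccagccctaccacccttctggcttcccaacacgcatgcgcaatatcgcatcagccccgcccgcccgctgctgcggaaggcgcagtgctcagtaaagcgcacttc

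Among these windows Peg3 alone held a match, AGGTG at position 228 and GGGGCCCC at position 50. A window of Meg3 that is not printed held CACCT, on either strand, at 3 positions. Over the 13 windows, CACCT on either strand was found in 5 (1 window each of Igf2, Meg3, Peg3, Dlk1 and Grb10), whereas 51.9% of all 32851 mouse promoter windows of this length hold it. CACCTG was found in 0 of the 13, beside 20.2% of all windows, and GGGGCCCC in 1, beside 1.08%. The number of CpG pairs, the sites of imprinting marks, was 26 in the Plagl1, 13 in the Peg3, 11 in the Ndn and 0 in the Rian window, against a median of 7 over all windows. These matches are letters in a window and were not tested as binding sites.

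Other genes of the pathways were read from 3 lists. Of 50 other imprinted genes, 45 were in the table and 31 were tested, with a median log2 fold change of -0.0024. Of the 31, 7 were under -0.2, beside 22.6% of all genes, and 6 were over 0.2, beside 15.9%. None had an unadjusted p under 0.05 from edgeR. The 5 with the smallest p were Slc38a4, an amino acid transporter, at 0.50, Osbpl5, a lipid transfer protein, at -0.37, Mcts2, a retrogene that may share reads with its parent gene, at 0.25, Zdbf2, a zinc finger gene, at -0.60, and Airn, the noncoding RNA antisense to Igf2r, at 0.20. Without Zeb2 fl/fl replicate 2, Slc38a4 was at 0.29, Osbpl5 at -0.083, Zdbf2 at -0.33 and Airn at 0.13. Zdbf2 was at -0.38 without Zeb2 cKO replicate 1 and -0.90 without Zeb2 cKO replicate 2, Mcts2 at 0.14 without Zeb2 cKO replicate 1, and Airn at 0.11 without Zeb2 cKO replicate 3. Zeb2 fl/fl replicate 2 was the highest library in 12 of the 31 (38.7%), beside 35.2% of all genes. It was the lowest in 12 (38.7%), beside 34.6%, so that the other imprinted genes as a list did not stand out in it. Their mean deviation there was -0.045, beside 0.48 for the members.

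Of 20 genes that bind IGF2 or carry its signal, 17 were tested, and their median log2 fold change was -0.13. Of the 17, 8 were under -0.2, beside 22.6% of all genes, and 1 was over 0.2, beside 15.9%. The IGF binding proteins Igfbp6 and Igfbp7 were at -0.75 and -0.71, and the receptor gene Igf1r was at -0.26. Igfbp7 measured 103, 331 and 126 CPM among Zeb2 fl/fl mice, against 94.5, 107 and 141 CPM among Zeb2 cKO mice, so its highest library was again Zeb2 fl/fl replicate 2. Leaving out that library put Igfbp6 at -0.075 and Igfbp7 at -0.0048. Igf1r, in contrast, measured 20.9, 18.8 and 19.8 CPM among Zeb2 fl/fl mice, against 13.9, 15.8 and 20.0 CPM among Zeb2 cKO mice, where only Zeb2 cKO replicate 3 overlapped with the other group. Its log2 fold change was -0.42 without that library and -0.15 without Zeb2 cKO replicate 1. Leaving out Zeb2 fl/fl replicate 2 put 2 of the 17 under -0.2, beside 11.7% of all genes, and 1 over 0.2, beside 14.2%, with a median of 0.0060. Of 12 partners of the cell cycle brake of Cdkn1c, all tested, 3 were under -0.2, beside 22.6% of all genes, and 2 over 0.2, beside 15.9%. Among them were the cyclin Ccnd1 at 0.28, the kinase Cdk6 at -0.23 and the inhibitor Cdkn1a at -0.37. With Zeb2 fl/fl replicate 2 left out, 1 of the 12 was under -0.2 and 0 were over, and Ccnd1 was at 0.13 and Cdkn1a at -0.11. Cdk6 was at -0.060 without Zeb2 cKO replicate 1 and -0.42 without Zeb2 cKO replicate 3, where Ccnd1 was at 0.16 and Cdkn1a at -0.76. Cdkn1a was at -0.20 without either of the other Zeb2 cKO libraries. With all libraries, the unadjusted p from edgeR was under 0.05 for 0 genes of both lists.

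The genes whose pattern was most like the mean of the members across the 6 libraries were Cant1, a nucleotidase, with r = 0.998, and Ldlrad3, Slc27a3, Jag1 and Gpr160. They were the 5 highest of 14737 tested genes outside the members, of which 619 had an r over 0.9. Cant1 measured 10.8, 13.7 and 9.82 CPM among Zeb2 fl/fl mice, against 9.87, 10.8 and 11.2 CPM among Zeb2 cKO mice, a log2 fold change of -0.10. Zeb2 fl/fl replicate 2 was its highest library and the other 5 overlapped, as in the mean of the members, and r was 0.994 without the 2 libraries farthest from the median.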

How the data were processed

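Raw gene counts of 6 libraries, as the authors deposited them, formed the only table. The libraries were prepared, according to the methods of the study, as stranded total RNA depleted of ribosomal RNA, aligned and counted with the STAR workflow on Gencode M4 (GRCm38). The STAR version, the strand option and the treatment of multi-mapping reads are not given in the sources used here. The authors' own test, DESeq, was not used. Each column was matched to 1 sample, with 0 left over, and groups and replicate numbers came from the sample labels.

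Counts were normalized with TMM and tested for genotype with glmQLFit and glmQLFTest in edgeR 4.0.16 (R 4.3.3), after filterByExpr, with a prior count of 0.125 for fold changes and 2 for log2 CPM, and with Benjamini-Hochberg adjustment over all 14746 tested genes. DESeq2 1.42.0 was an alternative. Single values were compared by two-sided exact permutation tests and pairs of members by exact permutation of Pearson's r and Spearman's rho (scipy 1.17.1). Gencode M21 gave positions, and BLAST 2.17.0 the transcript stretches of at least 75 bases shared at 95% identity or more. The steps were tested on simulated data before use. There edgeR called 29 of 98 genes simulated at a log2 fold change of 1, 82 of 97 at 2 and 5 of 14404 unchanged genes. A change of the smaller size was thus mostly missed. DESeq2 called 50 of 100 and 90 of 100, but also 44 of 14546 unchanged genes. The libraries held 37288174 to 51136331 counts. For the members with the lowest counts, such as Plagl1 and Cdkn1c, counting error is part of the spread between libraries.

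The members and lists were chosen with earlier results of these data known. Genes were named by a rule: all 10 members, Zeb2, the genes with the smallest p of the lists (5 of the other imprinted genes, 3 of the IGF2 pathway and 3 of the cell cycle brake) and the 5 genes most like the mean of the members. Alternatives covered the scaling, mitochondrially encoded genes, the filter, the test, the replicate number as a block, a fibroblast and matrix covariate and leaving out each library. The ratios of H19 to Igf2 and of Meg3 to Rian, and the counts per list without Zeb2 fl/fl replicate 2, were added after the data had been seen.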

Additional observations from a re-analysis of the deposited data

How the results depend on the processing

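Of 108 values of the tested members under 12 alternatives, 102 kept their direction and 6 were reversed. With the fibroblast and matrix covariate the log2 fold change was 0.063 for Rian, 0.28 for Peg3, 0.045 for Cant1, 0.036 for Ldlrad3, 0.050 for Slc27a3, 0.033 for Jag1 and 0.061 for Gpr160, all reversed. Leaving out 1 library gave -0.11 to 0.35 for H19, -0.91 to 0.026 for Rian, -0.59 to 0.31 for Peg3, -0.20 to 0.052 for Cant1, -0.27 to 0.043 for Ldlrad3, -0.83 to 0.092 for Slc27a3, -0.28 to 0.047 for Jag1 and -0.62 to 0.086 for Gpr160. The reversals came without Zeb2 fl/fl replicate 2, except in H19, where they came without Zeb2 fl/fl replicate 3 (-0.11) and Zeb2 cKO replicate 2 (-0.012).

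Across the 12 edgeR fits, 0 genes had an adjusted p under 0.05, beside 122 to 1134 with an unadjusted p under 0.05, and the adjusted p of the members ran from 0.596 upwards. DESeq2's Wald test called 1 higher gene, Slc46a2, with 429 genes at an unadjusted p under 0.05, 7763 under -0.2 and 6523 over 0.2 among 24115 genes. Without a filter on low counts these were 600, 7350 and 6797 genes, and 1 member, Igf2, had an unadjusted p under 0.05 (0.0408). The covariate left 1580 genes under -0.2, with 0 members under -0.2, 3 over 0.2 and a median of 0.063.

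Leaving out 1 library gave 1753 to 4342 genes under -0.2 and 2120 to 3995 over 0.2. It gave 0 to 5 members under -0.2, 1 to 3 over 0.2 and 0 to 2 with an unadjusted p under 0.05, and a median of the members from -0.46 to 0.026. The median r over the 36 pairs ran from 0.192 to 0.435, and was 0.244 without the 2 farthest libraries. The log2 difference of the ratios ran from -0.48 to 0.00061 for H19 over Igf2 and from -0.26 to 0.43 for Meg3 over Rian. The causes were not tested.

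Same-numbered libraries did not deviate together (r of 0.088, -0.14 and -0.087), and none correlated best with its own number, so the numbers were not taken as pairs. With the replicate number as a block, 0 genes had an adjusted p under 0.05 from edgeR, 247 an unadjusted one, and 4 members were under -0.2. Dlk1 was not detectable at this depth, and whether it was expressed at all was not tested. The 95% confidence intervals of the other members, which span 0, set how large a difference could be shown with 3 libraries a group.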
